A study of Mus musculus with 4 samples.

Results

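The Cyp2c genes encode a subfamily of cytochrome P450 enzymes, and their signals in mouse liver were compared between 4 oligonucleotide arrays from a study of the nuclear receptor PPARα. The members were fixed by name as 10 genes, Cyp2c29, Cyp2c37, Cyp2c38, Cyp2c39, Cyp2c40, Cyp2c44, Cyp2c50, Cyp2c54, Cyp2c55 and Cyp2c70, and were found through the array annotation by current or older symbol. Probe sets were found for 9 of the 10 genes, 1 probe set each, out of 22626 probe sets and 12393 named genes on the array. No probe set was assigned to Cyp2c40, so its signal was not analysed here. Cyp2c44 is listed under its current symbol, Cyp2c23.

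Each array was hybridised with liver RNA pooled from 1 group of male mice, 12 to 20 weeks old, 5 mice per group by the design text. The groups were PPARα-null mice (strain 129S4/SvJae, without a functional Ppara gene in any tissue) given Wy14643, a synthetic PPARα agonist, at 0.1% w/w in the food for 5 days, PPARα-null mice on normal food, wild-type mice (129S1/SvImJ) given Wy14643 in the same way, and wild-type mice on normal food. For the wild-type Wy14643 array the title names the agonist while the free-text description names control conditions, and the title was followed. Among P450 genes looked up for this label after their values were seen, Cyp4a14, a textbook PPARα target, read 213 and 25.0 in PPARα-null mice on Wy14643 and on control food, against 9932 and 2717 in wild-type mice on the same diets. Cyp4a31, of the same subfamily, read 9.64 and 8.10 in PPARα-null mice, against 3588 and 25.1 in wild-type mice. Both were higher on the wild-type array titled Wy14643 than on the wild-type control array. The 2 genotypes were of different 129 substrains, so that genotype and substrain cannot be told apart. With 1 pooled array per group there was no replicate, no test and no p-value, and every ratio below is a description of 2 arrays.

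Cytochromes P450 of the Cyp2c subfamily are haem enzymes of the endoplasmic reticulum that take electrons from P450 reductase and insert oxygen into lipids and drugs. In the liver, where most are made by hepatocytes, several members turn arachidonic acid into epoxides and hydroxylated products, and the epoxides are opened by epoxide hydrolases. PPARα is a lipid-activated transcription factor that pairs with RXR and switches on the genes of fatty acid oxidation, and its own P450 targets are best known from the Cyp4a subfamily. Many mouse Cyp2c genes are known to respond to the xenobiotic receptors CAR and PXR and to liver factors such as HNF4α.

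The deposited GCRMA intensities had medians of 14.5 and 14.2 in PPARα-null mice on Wy14643 and on control food, and 14.6 and 14.3 in wild-type mice on the same diets. Background was set at 14.2, the 90th percentile of the values of 81 probe sets for 49 genes silent in adult liver, and 50.1% to 50.9% of the probe sets passed it on each array. Ppara itself read 428 and 326 in PPARα-null mice on Wy14643 and on control food, against 1250 and 847 in wild-type mice on the same diets. The signal was thus 2.92-fold lower in PPARα-null mice on Wy14643 and 2.60-fold lower on control food, and remained above background. All 11 hepatocyte markers with a probe set (Alb, Ttr, Apoa1 and others) were above background on every array. In whole liver, fewer cells of a type and less RNA per cell cannot be told apart.

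The Cyp2c genes lie next to each other. In the RefSeq annotation 14 protein-coding Cyp2c genes follow one another on chromosome 19 with 0 other protein-coding genes between them, in the order Cyp2c55, Cyp2c65, Cyp2c66, Cyp2c29, Cyp2c39, Cyp2c38, Cyp2c67, Cyp2c68, Cyp2c40, Cyp2c69, Cyp2c37, Cyp2c54, Cyp2c50 and Cyp2c70. This order is by 1 annotated start coordinate per gene. Cyp2c39 also has a second promoter window that lies beyond the window of Cyp2c38. Cyp2c44 lies apart from this cluster on the same chromosome. These paralogs share much of their sequence, and whether a probe set reads more than 1 of them was not tested, because the probe sequences were not used here. The Cyp2c44 probe set carries the suffix that marks probes shared by several transcripts.

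Promoter windows from RefSeq (GRCm38.p6, 250 bases before to 50 after the start, 5′ to 3′) were found for 8 members, in 9 windows, and 4 of them are shown. Cyp2c70 had the largest wild-type response among the members with a window, Cyp2c29 had a smaller one, and the windows of Cyp2c37 and Cyp2c50 are the most alike. They lie at chr19:40187237-40187536 on the minus strand (Cyp2c70), chr19:39286835-39287134 on the plus strand (Cyp2c29), chr19:39992174-39992473 on the plus strand (Cyp2c37) and chr19:40089429-40089728 on the plus strand (Cyp2c50). Capitals mark matches to the nuclear receptor half-site AGGTCA or to the HNF4 core CAAAGTC, each searched on both strands. In Cyp2c70 the second stretch of capitals is the longer HNF4 site CAAAGTCCA, which contains the core.
Cyp2c70: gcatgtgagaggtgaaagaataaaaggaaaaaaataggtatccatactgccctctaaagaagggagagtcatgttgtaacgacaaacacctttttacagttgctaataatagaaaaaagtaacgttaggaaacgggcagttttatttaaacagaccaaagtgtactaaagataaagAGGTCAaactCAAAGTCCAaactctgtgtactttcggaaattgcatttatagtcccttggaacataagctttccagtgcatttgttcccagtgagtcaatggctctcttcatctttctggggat
Cyp2c29: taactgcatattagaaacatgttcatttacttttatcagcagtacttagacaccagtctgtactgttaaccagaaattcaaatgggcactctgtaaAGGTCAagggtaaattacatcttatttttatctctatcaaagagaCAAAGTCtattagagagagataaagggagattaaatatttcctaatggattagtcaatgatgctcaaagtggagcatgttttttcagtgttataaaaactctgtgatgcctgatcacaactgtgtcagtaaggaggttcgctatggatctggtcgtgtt
Cyp2c37: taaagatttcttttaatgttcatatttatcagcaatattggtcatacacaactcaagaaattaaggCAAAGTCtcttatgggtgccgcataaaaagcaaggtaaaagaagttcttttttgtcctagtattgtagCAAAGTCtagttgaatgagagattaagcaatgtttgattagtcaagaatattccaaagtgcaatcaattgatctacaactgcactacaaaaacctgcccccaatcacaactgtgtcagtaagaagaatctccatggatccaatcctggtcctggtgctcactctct
Cyp2c50: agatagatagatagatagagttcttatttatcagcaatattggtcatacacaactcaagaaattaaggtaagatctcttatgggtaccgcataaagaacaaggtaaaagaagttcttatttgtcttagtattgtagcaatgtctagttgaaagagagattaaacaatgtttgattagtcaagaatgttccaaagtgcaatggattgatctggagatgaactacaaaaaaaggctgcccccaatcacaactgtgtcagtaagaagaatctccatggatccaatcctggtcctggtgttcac

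The half-site AGGTCA was present in 3 of the 9 member windows (Cyp2c29, Cyp2c39 and Cyp2c70) and in 16.3% of all 32851 windows of that length. The core CAAAGTC was present in 6 of the 9 windows and in 4.44% of all windows. Both windows of Cyp2c39 are among these 6. The members are paralogs with similar windows, so the 9 windows are not independent. Cyp2c37 carried the core at 2 places, while Cyp2c50 carried none in its window. The longer site CAAAGTCCA was present in 2 of the 9 windows, Cyp2c40 and Cyp2c70, and in 0.475% of all windows. The direct repeat AGGTCANAGGTCA, the letters of a classical PPARα and RXR site, was present in 0 of the 9 windows and in 0.04% of all windows. These matches describe letters only. Only exact matches were searched, and at a share of 0.04% a count of 0 in 9 windows carries no information on PPARα sites. The windows of Cyp2c37 and Cyp2c50 were the closest pair, 86.6% identical over 305 aligned columns, whereas the pair next in identity, Cyp2c38 and Cyp2c39, reached 78.1%.

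In wild-type mice, the Cyp2c genes were lower on Wy14643. Of the 9 genes with a probe set, 8 were above background on at least 1 array, and all 8 were at least 1.5-fold lower on Wy14643 than on control food, the threshold the study used for pooled arrays. The range ran from 1.79-fold for Cyp2c39 to 76.3-fold for Cyp2c54, and the median log2 ratio was -2.33. Of all 12140 probe sets measured in that comparison, 15.4% were lower by this threshold, and their median log2 ratio was 0.02. In PPARα-null mice 1 of the 8 genes, Cyp2c38, was past the threshold, and the median log2 ratio was -0.01.

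**Figure D1:**
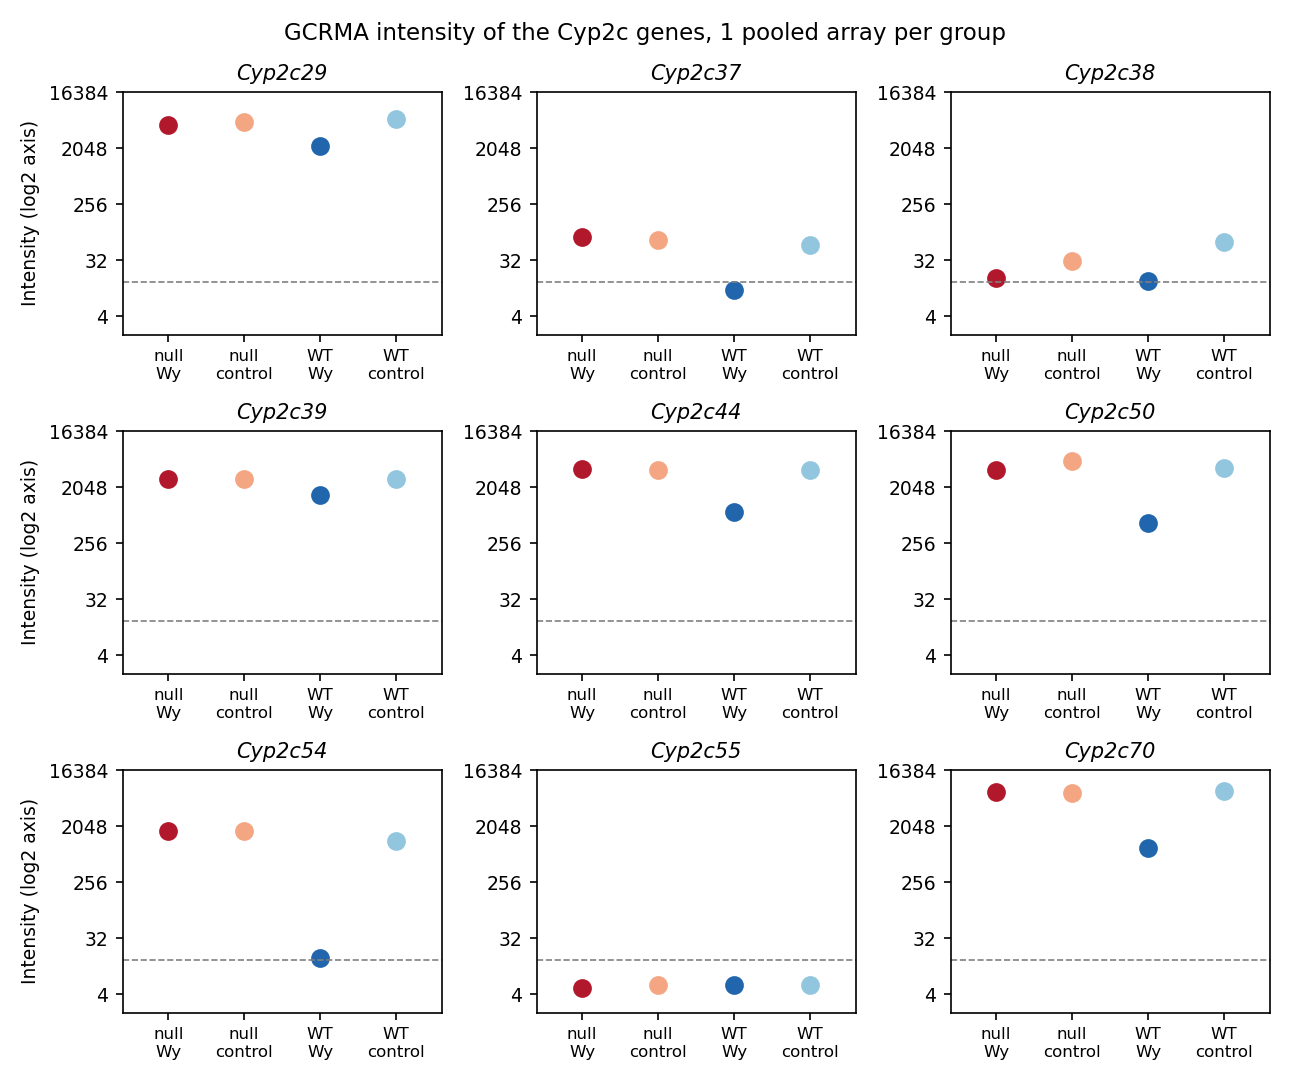
GCRMA intensity (log2 axis) of the 9 Cyp2c genes with a probe set on each of the 4 arrays, 1 point per array, with PPARα-null (null) left of wild type (WT), Wy14643 (Wy) left of control, and a dashed line at the background intensity of 14.2. In the panels of Cyp2c44, Cyp2c50, Cyp2c54 and Cyp2c70 the wild-type Wy14643 array lies well below the other 3, and all 4 points of Cyp2c55 lie below the dashed line.

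The member with the widest range over the 4 arrays was Cyp2c54, which metabolises arachidonic and linoleic acid. Cyp2c54 had intensities of 1728 and 1710 in PPARα-null mice on Wy14643 and on control food, against 15.2 and 1158 in wild-type mice on the same diets. The wild-type Wy14643 array was thus at the edge of background, far from the other 3 arrays. Cyp2c54 was 76.3-fold lower on Wy14643 in wild-type mice (log2 ratio -6.25), the fifth lowest of the 12140 probe sets measured, and its log2 ratio in PPARα-null mice was 0.02. With both genotypes on Wy14643, PPARα-null was 114-fold above wild type. Because 15.2 lies below 16.3, the 95th percentile of the liver-silent probe sets, both ratios were also taken with that value as the floor, and were then at least 106-fold between genotypes and at least 71.1-fold between diets.

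Cyp2c50, its neighbour in the cluster and a further arachidonic and linoleic acid epoxygenase, read 3882 and 5375 in PPARα-null mice on Wy14643 and on control food, against 541 and 4074 in wild-type mice on the same diets. Wy14643 went with a 1.38-fold lower signal in PPARα-null mice, under the threshold, and with a 7.53-fold lower signal in wild-type mice. With both genotypes on Wy14643, the PPARα-null array read 7.18-fold above the wild-type array.

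Cyp2c37, the third gene of this stretch and an arachidonic acid hydroxylase, was dim on all arrays. It read 74.7 and 67.7 in PPARα-null mice on Wy14643 and on control food, against 10.4 and 55.7 in wild-type mice on the same diets. The value of 10.4 was below background. With 16.3, the 95th percentile, as the floor, the wild-type response to Wy14643 was at least 3.42-fold downward, and the PPARα-null array on Wy14643 was at least 4.59-fold above its wild-type counterpart. With 32 added to every intensity, the log2 ratio of the wild-type response was -1.05.

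Cyp2c70 makes muricholic acids, the hydrophilic bile acids typical of mice, from chenodeoxycholic acid. Its intensities were 7288 and 7051 in PPARα-null mice on Wy14643 and on control food, against 897 and 7428 in wild-type mice on the same diets. The wild-type Wy14643 array stood alone, 8.28-fold below the wild-type control array (log2 ratio -3.05), and the other 3 arrays lay close together. With Wy14643 in the food, the PPARα-null array was 8.12-fold above the wild-type array.

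In Cyp2c44, an arachidonic acid epoxygenase, the wild-type Wy14643 array was again the lowest. It read 4048 and 3865 in PPARα-null mice on Wy14643 and on control food, against 825 and 3906 in wild-type mice on the same diets. The wild-type Wy14643 array was 4.90-fold below the PPARα-null array on the same food and 4.73-fold below the wild-type control array. Cyp2c44 was the member outside the cluster.

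Cyp2c29 and Cyp2c39 had the smallest ratios of the 8 genes in wild-type mice. Cyp2c29, an arachidonic acid epoxygenase and a classical target of phenobarbital, read 4779 and 5366 in PPARα-null mice on Wy14643 and on control food, against 2168 and 6076 in wild-type mice on the same diets. For Cyp2c29 the wild-type Wy14643 array was 2.20-fold below the PPARα-null Wy14643 array and 2.80-fold below the wild-type control array. Cyp2c39, known as a retinoic acid hydroxylase, read 2715 and 2782 in PPARα-null mice on Wy14643 and on control food, against 1540 and 2752 in wild-type mice on the same diets. For Cyp2c39 the wild-type Wy14643 array was 1.79-fold below its control, and the PPARα-null Wy14643 array was 1.76-fold above the wild-type one.

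Cyp2c38, a close paralog of Cyp2c39 that also acts on arachidonic acid, differed from the others. It read 16.2 and 30.7 in PPARα-null mice on Wy14643 and on control food, against 14.7 and 62.2 in wild-type mice on the same diets. Both Wy14643 arrays were near background. Its signal was lower on Wy14643 in both genotypes, by 1.90-fold without PPARα and by 4.22-fold with it, and with the 95th percentile as the floor these ratios were at least 1.88-fold and at least 3.82-fold. It was also the 1 member past the threshold between genotypes on control food, 2.03-fold lower in PPARα-null mice.

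Cyp2c55, best known from the colon, read between 5.04 and 5.65 on the 4 arrays, below background on each, and was not counted.

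**Figure D2:**
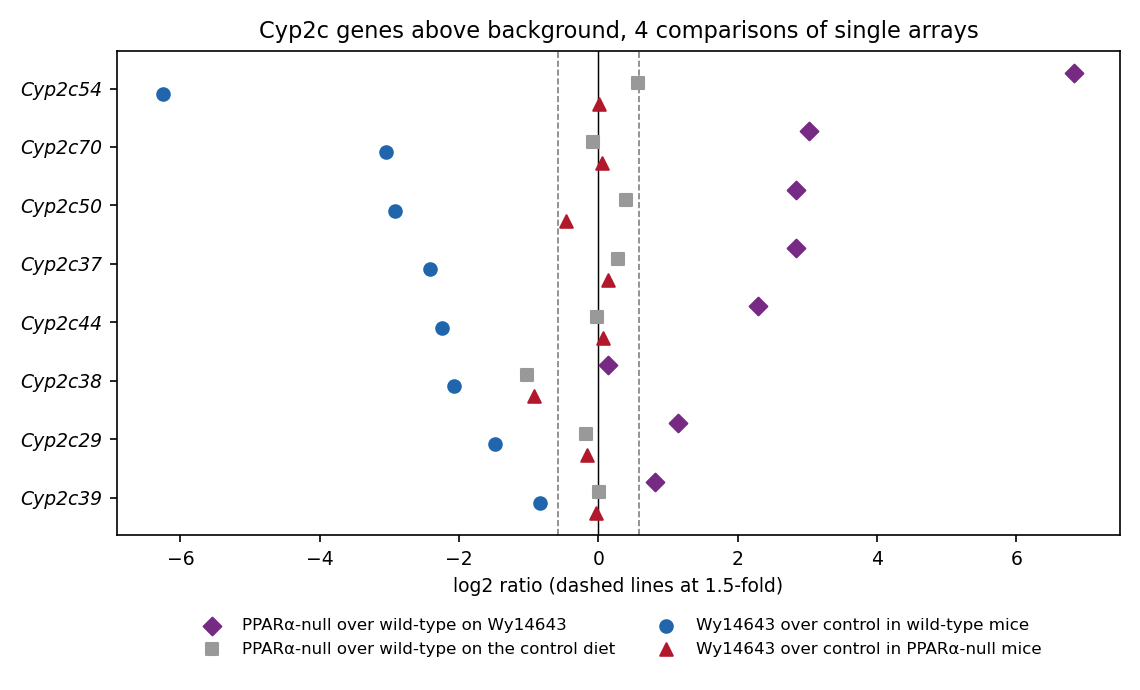
Log2 ratios of the 8 Cyp2c genes above background on at least 1 array (rows) in 4 comparisons of single arrays (symbols), with dashed lines at 1.5-fold; the ratios of Cyp2c37 that use the wild-type Wy14643 array are as measured, below background. The circles of the wild-type Wy14643 response run from -0.84 to -6.25, while the triangles for PPARα-null mice lie between -0.92 and 0.14.

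Between genotypes on Wy14643, 7 of the 8 genes had PPARα-null signals at least 1.5-fold above wild type, 0 had lower ones, and Cyp2c38 lay between at a log2 ratio of 0.13. The median log2 ratio was 2.57. Of all 12258 probe sets measured in that comparison, 17.1% were higher by the threshold. On control food, 0 of the 8 genes were higher and 1 was lower, with a median log2 ratio of 0.00 and 4.91% of all 11729 probe sets past the threshold in either direction. Cyp2c54 lay closest under the threshold on control food, 1.48-fold higher in PPARα-null mice.

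The comparison of Wy14643 with control food in PPARα-null mice had 7.16% of all 11884 probe sets past the threshold in either direction, against 1 of the 8 Cyp2c genes. When the log2 response of wild-type mice was subtracted from that of PPARα-null mice, all 8 genes had a difference past the threshold, from 0.80 for Cyp2c39 to 6.27 for Cyp2c54, with a median of 2.38. Of all 12536 probe sets, 15.0% had a difference that high. These comparisons share arrays, the wild-type Wy14643 array in particular, and so are not independent of each other.

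**Figure D3:**
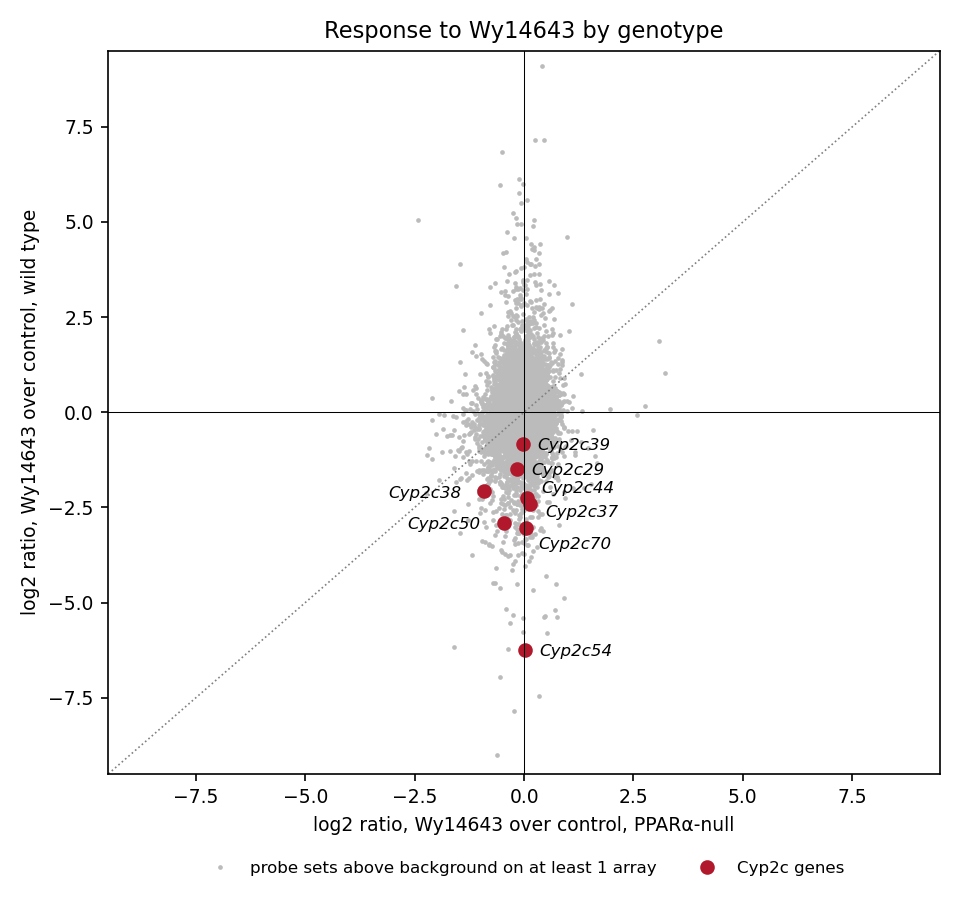
Log2 ratio of Wy14643 over control food in PPARα-null mice (horizontal axis) and in wild-type mice (vertical axis) for 12536 probe sets above background on at least 1 array (grey) and the 8 Cyp2c genes (red), with a dotted line of equal response. The red points lie below 0 on the vertical axis, from -0.84 to -6.25, and between -0.92 and 0.14 on the horizontal axis.

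Other P450 genes were read in the same comparisons. Of 34 named P450 genes outside the subfamily that were measured, a list taken after the data were seen, 20 were lower on Wy14643 in wild-type mice, 5 higher and 9 between, with a median log2 ratio of -0.69. In PPARα-null mice 5 of 33 were lower and 2 higher, with a median of -0.02. Among all 12140 probe sets measured for the wild-type response, 1864 were lower and 1865 higher. For the response without PPARα, 590 of 11884 were lower and 261 higher. Cyp2c68, a cluster gene that is not among the 10 members, read 7699 and 9639 in PPARα-null mice on Wy14643 and on control food, against 1416 and 10156 in wild-type mice on the same diets. It lies beside Cyp2c40 in the cluster, and whether its probe set also reads Cyp2c40 or other paralogs was not tested.

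Genes of P450 electron transfer, epoxygenases outside Cyp2c and epoxide hydrolases were read from lists drawn from textbook knowledge. Of 7 genes of P450 electron transfer, 5 were measured. No probe set was assigned to Por, which encodes P450 reductase, or to Fdxr, so neither was read. On Wy14643 1 of the 5, Cyb5b, was lower past the threshold in PPARα-null mice and 0 were past it in wild-type mice. Of all measured probe sets, 7.16% were past it in PPARα-null mice, and in wild-type mice 1864 of 12140 were lower and 1865 higher. Cyb5b, a mitochondrial cytochrome b5, read 911 and 1435 in PPARα-null mice on Wy14643 and on control food, against 2258 and 1693 in wild-type mice on the same diets. Its log2 ratio of PPARα-null over wild type on Wy14643 was -1.31, the 1 of 5 past the threshold there. Of 5 measured epoxide hydrolases and epoxygenases outside Cyp2c, wild-type mice on Wy14643 had 2 higher and 1 lower. Both higher ones were epoxide hydrolases. The lower one was Cyp2j9, at 11.1 on Wy14643, below background, and 16.7 on control food. Its log2 ratio of -0.59 was at the edge of the threshold. Ephx2, the soluble epoxide hydrolase that opens the epoxides of arachidonic acid, read 1829 and 1720 in PPARα-null mice on Wy14643 and on control food, against 8094 and 3048 in wild-type mice on the same diets. Ephx1, the microsomal enzyme, read 3654 and 2390 in PPARα-null livers and 5097 and 2038 in wild-type livers, in the same order of diets. The Wy14643 log2 ratios in PPARα-null mice were 0.09 for Ephx2 and 0.61 for Ephx1, the second past the threshold, and those in wild-type mice were 1.41 and 1.32. Cyp2j5, an arachidonic acid epoxygenase outside the subfamily, had a log2 ratio of 0.26 on Wy14643 in wild-type mice, under the threshold.

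Of 15 measured receptors and transcription factors known to act on Cyp2c genes, 0 were past the threshold in PPARα-null mice on Wy14643. In wild-type mice 5 were lower and 2 higher. Over all measured probe sets, 7.16% were past the threshold in PPARα-null mice. In wild-type mice 1864 of 12140 were lower and 1865 higher. Ahr, the dioxin receptor, read 846 and 973 in PPARα-null mice on Wy14643 and on control food, against 242 and 830 in wild-type mice on the same diets. Cebpa, a liver-enriched transcription factor, read 2282 and 1842 in PPARα-null mice on those diets, against 714 and 1867 in wild-type mice. Foxa2, a forkhead factor of liver, had Wy14643 log2 ratios of -0.19 without PPARα and -1.20 in wild-type mice. The xenobiotic receptors were close to 0 in wild-type mice, with log2 ratios of -0.08 for Nr1i3, which encodes CAR, and 0.01 for Nr1i2, which encodes PXR. Hnf4a, which encodes HNF4α, had log2 ratios of -0.57 in the PPARα-null and -0.54 in the wild-type response, both under the threshold.

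Most measured genes of both ends of the liver lobule were also lower on Wy14643 in wild-type mice. Of 11 measured pericentral genes, which hepatocytes around the central vein express, 7 were lower and 0 higher, with a median of -0.68. Cyp1a2, a pericentral P450, read 4681 and 3742 in PPARα-null mice on Wy14643 and on control food, against 647 and 3935 in wild-type mice on the same diets. Of 9 measured periportal genes, which hepatocytes around the portal vein express, 6 were lower and 0 higher, with a median of -1.32. Hal, the first enzyme of histidine breakdown, had a log2 ratio of -3.72. Other genes of both lists were under the threshold in wild-type mice. Among them were the pericentral Cyp2e1 (0.01) and Glul (-0.35) and the periportal Cyp2f2 (-0.13). In PPARα-null mice 0 of 11 pericentral and 0 of 8 periportal genes were past the threshold. Over all measured probe sets, 15.4% were lower in wild-type mice, and 7.16% were past the threshold in either direction in PPARα-null mice. In lists this short, counts of 0 are close to that second share.

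**Figure D4:**
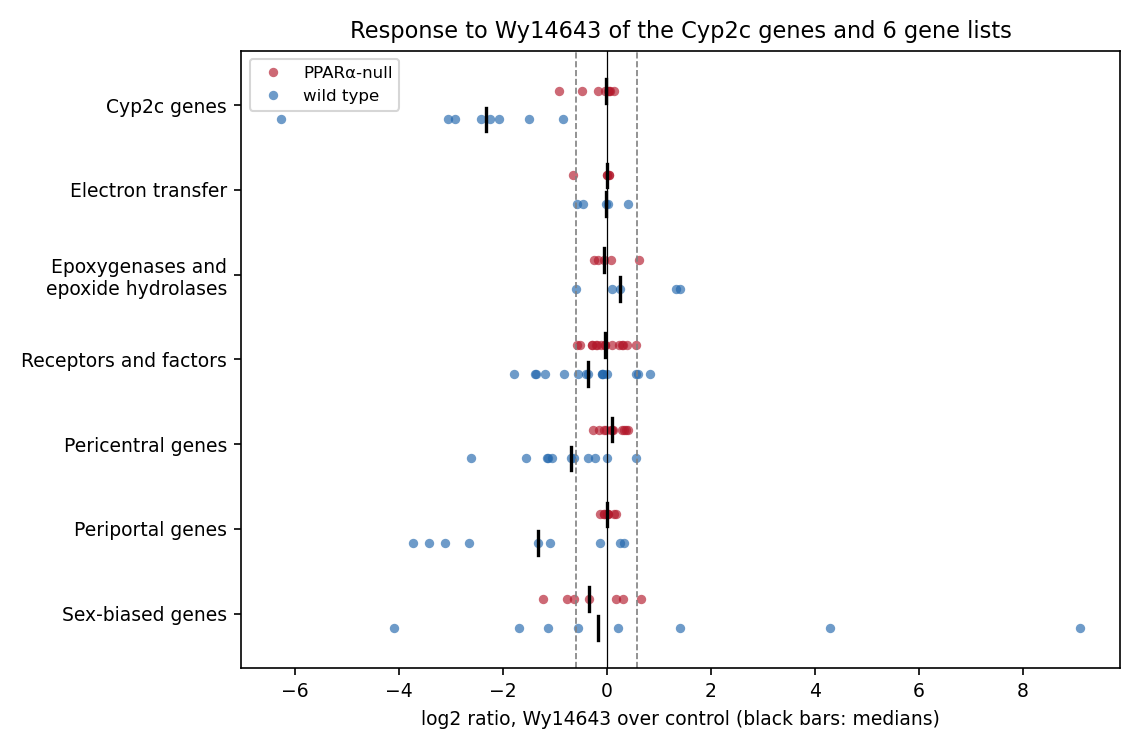
Log2 ratio of Wy14643 over control food for the Cyp2c genes and 6 gene lists (rows), with PPARα-null mice in red above wild-type mice in blue, 1 point per measured gene, black bars at the medians and dashed lines at 1.5-fold. The wild-type Cyp2c points lie left of the dashed line with a median of -2.33, and the medians of the pericentral and periportal genes are -0.68 and -1.32.

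Marker genes of liver cell types also differed between arrays, and their part in the Cyp2c ratios was not tested. Of the 11 hepatocyte markers, 0 were lower on Wy14643 in PPARα-null mice and 4 in wild-type mice, with a wild-type median log2 ratio of -0.15. Over all measured probe sets, 590 of 11884 were lower in PPARα-null mice and 1864 of 12140 in wild-type mice. Their summed intensity was 121769 and 119845 in PPARα-null mice on Wy14643 and on control food, against 109046 and 118906 in wild-type mice on the same diets. Kupffer cell markers were lower on Wy14643 in both genotypes, 8 of 8 measured without PPARα and 7 of 8 with it. Their sums were 667 and 1307 in PPARα-null mice on Wy14643 and on control food, against 433 and 1096 in wild-type mice, and Marco and Cd68 were below background on all 4 arrays. Stellate cell and fibroblast markers summed to 2715 and 2588 in PPARα-null mice, against 1124 and 2172 in wild-type mice, with Col1a1, Lrat and Des below background on all 4 arrays. Most of each of these sums was Dcn and Rgs5. In PPARα-null mice Rgs5 was lower on Wy14643 (log2 ratio -0.61), while Col3a1 and Reln were higher (0.79 and 0.80). Sinusoidal endothelial markers summed to 392 and 678 in PPARα-null mice, against 436 and 651 in wild-type mice. Clec4g changed most, at 81.0 and 296 in PPARα-null mice, against 152 and 315 in wild-type mice. Stab2 read 188 and 196, against 139 and 167. Of the 7 measured, 4 were lower on Wy14643 in PPARα-null mice and 2 in wild-type mice. Neutrophil markers summed to 265 and 70.7 in PPARα-null mice, against 63.1 and 63.5 in wild-type mice. Of the cholangiocyte, lymphocyte and enterocyte markers, at most 2 of each list were above background on any array. The cholangiocyte sums were 71.1 and 66.1 in PPARα-null mice on Wy14643 and on control food, against 81.1 and 64.1 in wild-type mice, and the lymphocyte sums were 79.4 and 67.7 in PPARα-null mice, against 78.9 and 72.3 in wild-type mice. The enterocyte sums were 966 and 786 in PPARα-null mice, against 2445 and 816 in wild-type mice, and were nearly all Fabp2, which read 943 and 761 in PPARα-null mice, against 2429 and 797 in wild-type mice. Vil1, the other measured enterocyte marker, read 16.4 and 19.7 in PPARα-null mice, against 11.5 and 14.1, both below background, in wild-type mice.

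Protein-coding genes flanking the cluster were read by position. Pdlim1, the first gene with a probe set after Cyp2c70, read 155 and 145 in PPARα-null mice on Wy14643 and on control food, against 134 and 150 in wild-type mice on the same diets, all ratios under the threshold. On the other side, Hells and Noc3l were below background on all 4 arrays. Around Cyp2c44, 4 genes with a probe set were read, 2 on each side. Their log2 ratios on Wy14643 in wild-type mice were -0.10 for Cpn1 and 1.10 for Dnmbp on one side, and 0.20 for Erlin1 and -0.91 for Cwf19l1 on the other. Dnmbp was thus past the threshold upward and Cwf19l1 downward, while the 4 log2 ratios in PPARα-null mice lay between -0.33 and 0.11.

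The 5 genes whose profile over the 4 arrays was most like that of Cyp2c54, by root mean square distance of centred log2 intensities over 7466 genes, were Cyp4f14 (0.37), Nnmt (0.42), Rdh16f2 (0.45), Sult1a1 (0.48) and Slc22a26 (0.49). Cyp4f14, a leukotriene hydroxylase, read 1962 and 2856 in PPARα-null mice on Wy14643 and on control food, against 21.3 and 2652 in wild-type mice on the same diets. Sult1a1, a phenol sulfotransferase, read 4097 and 4177 in PPARα-null mice, against 80.2 and 4358 in wild-type mice. The likeness rests on 4 arrays, and the genes were chosen for it.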

How the data were processed

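Liver RNA pooled within each of the 4 groups was hybridised to Affymetrix MOE430A arrays. The deposited values are linear intensities that the authors summarised per probe set with GCRMA 2.20, per the submitters' processing notes, which combines background correction, quantile normalization and summarization. Which arrays were normalized together is not given in the sources used here. Design text and methods differ on the labelling and on the pool size. For the wild-type Wy14643 array, the free text names the control diet, and the sample titles were followed.

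Of 22690 probe sets, 64 controls were left out. Through the platform annotation, 20380 had 1 gene symbol, 691 several and 1555 none. The log2 ratio of 2 deposited intensities was taken, with a call at 1.5-fold and no p-value. A gene with several probe sets was represented by the brightest. In each gene list, up to 4 genes with the largest ratio of PPARα-null over wild-type mice on Wy14643 were named. Genes outside this rule, among them Nr1i3, Nr1i2, Hnf4a, Cyp2j9, Cyp2e1, Glul and Cyp2f2, were named after their values were seen. Genes flanking the cluster and Cyp2c68 were named by position. The 5 genes nearest in profile to the member with the widest range were also named. The members and lists were chosen with earlier results of these data known. Alternatives changed the background, the filter on dim probe sets, a constant added, a floor, the scaling between arrays (median centring and cyclic loess), the choice of probe sets and the threshold. Scripts were tested on simulated data. Python 3.11.15, numpy 2.4.6, pandas 2.3.3, matplotlib 3.10.9, biopython 1.88, R 4.3.3 and limma 3.58.1 were used. The number of arrays limits the precision.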

Additional observations from a re-analysis of the deposited data

Results flagged for a closer look

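In 4 Cyp2c genes the Wy14643 response had opposite signs in the 2 genotypes, each from 1 array per group, and the difference was not tested. For Cyp2c54 the PPARα-null log2 ratio was 0.02 and the wild-type ratio -6.25, a difference of 6.27. For Cyp2c70 the PPARα-null ratio was 0.05 and the wild-type ratio -3.05, a difference of 3.10. For Cyp2c37 the ratios were 0.14 (PPARα-null) and -2.42 (wild type), a difference of 2.56 as measured and 2.11 with the floor at background, since the wild-type Wy14643 array was below background. For Cyp2c44 they were 0.07 (PPARα-null) and -2.24 (wild type), a difference of 2.31. The PPARα-null ratios of these 4 genes are smaller than 0.28, the SD of all probe sets between the PPARα-null arrays, so that their sign carries no information. With the arrays centred on their medians, the PPARα-null ratio of Cyp2c39, -0.03 as deposited, was 0.02.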

How the results depend on the processing

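The counts of Cyp2c genes past the threshold were recomputed under 50 alternatives, and 48 were within 1.5 times the reported count. The count for Wy14643 over control food in PPARα-null mice, 1 gene (Cyp2c38), was 0 with 32 added to every intensity and 0 with a threshold of 2-fold. With 32 added, the log2 ratio of Cyp2c38 in PPARα-null mice was -0.38, the only one of 147 alternatives for the 25 called ratios to leave the threshold. Over 235 alternatives for single genes, 13 moved by more than 0.28 (log2), the SD of all probe sets between the PPARα-null arrays. These were 10 with 32 added and 3, all of Cyp2c37, with the floor at background, and 0 of them changed sign. Ratios of Cyp2c39 near 0 changed sign with median centring, in the PPARα-null response and between genotypes on control food. With 32 added, Cyp2c54 had a log2 ratio of 5.22 for PPARα-null over wild-type mice on Wy14643 and of -4.66 for the wild-type Wy14643 response. Median centring shifted arrays by at most 0.04 and cyclic loess by at most 0.02 (log2). Counting probe sets annotated to several genes gave no value, since 0 of them included a member. Leaving out a replicate was not possible with 1 array per group. No paired analysis was possible because each group has 1 pooled array. Dim signals limit Cyp2c37 and Cyp2c38, and the wild-type Wy14643 value of Cyp2c54.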

Other observations

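The list of genes with sex-biased expression in mouse liver did not move one way. It pools male-biased and female-biased genes, so its counts describe neither kind alone. Of 7 measured in PPARα-null mice on Wy14643, 1 was higher and 3 were lower, with a median log2 ratio of -0.33. Of 8 measured in wild-type mice, 3 were higher, 3 lower and 2 between, with a median of -0.17. Over all probe sets of that comparison, 1865 of 12140 were higher and 1864 lower, and 7.16% were past the threshold in PPARα-null mice. Hsd3b5, Cyp2b9 and Cyp2b13 were below background on all 4 arrays. The 4 genes with the largest ratios between genotypes on Wy14643 were Cyp4a12a, Elovl3, Cyp3a44 and Cyp7b1. Cyp4a12a, a male-biased fatty acid hydroxylase, read 3423 in wild-type mice on Wy14643 and was below background on the other 3 arrays. Elovl3, a fatty acid elongase that is higher in males, read 16.7 and 14.8 in PPARα-null mice on Wy14643 and on control food, against 498 and 25.4 in wild-type mice on the same diets. Cyp3a44, a female-biased P450, read 885 and 1373 in PPARα-null mice on Wy14643 and on control food, against 74.0 and 1256 in wild-type mice on the same diets. Cyp7b1, a male-biased oxysterol hydroxylase, read 1845 and 3126 in PPARα-null mice on Wy14643 and on control food, against 549 and 1760 in wild-type mice on the same diets. In wild-type mice on Wy14643, male-biased Cyp4a12a and Elovl3 were thus higher, while male-biased Cyp7b1 and female-biased Cyp3a44 were lower. The remaining measured genes had wild-type log2 ratios of 1.40 (Cyp2d9), 0.21 (C6), -0.55 (Hao2) and -1.13 (Cux2).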
